A study of Mus musculus with 384 samples.

Results

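Of the 96 samples whose labels name the cerebellum (CER) or the dorsal or ventral CA3 field of the hippocampus (dCA3, vCA3), 32 had a normalized *Ociad2* value under 1200 and formed the Ociad2-low side, and 64 had a value over 1200 and formed the Ociad2-high side. They come from 380 libraries with values, out of 384 in the labels, which cover 12 brain regions of 32 male Balb/c mice. The labels place the mice in 4 groups of 8 by status (MS or Co) and injection (inject or naive), without spelling out these terms, and they were not matched to the conditions of the mouse model, in which a supportive or a stressful early and adult environment are combined. No transgene is named, and the groups share strain and sex. The labels give the age as postnatal day 9, whereas the study's methods describe adult mice, and they list Pit (pituitary) as a region where those methods list the nucleus accumbens. The account of punches, library preparation and alignment is taken from the methods and the labels, and these mismatches remain unresolved. Tissue was taken as frozen micropunches, and each library holds the reads of 69 gene-specific assays (TruSeq Targeted RNA sequencing), so that fewer cells of a type and less RNA per cell cannot be told apart.

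The assays were built around genes that respond to the glucocorticoid receptor (GR), the receptor through which corticosterone acts on transcription in nearly every tissue. Cerebellar tissue is dominated by granule cells and Purkinje neurons, and CA3 by pyramidal neurons that receive mossy fibres from the dentate gyrus and project to CA1. *Ociad2* encodes a small protein with an OCIA domain that is found at mitochondria and endosomes, and it is not a textbook marker of either tissue.

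Region labels may have been exchanged among these samples, so the question was whether the other genes divide the samples as *Ociad2* does, whether the region label adds anything within a side, and which tissue each side resembles. The sides were chosen by measured *Ociad2* values, which are therefore given as a description without a test. All comparisons leave this gene out and use the other 68. The division by a size factor shared by all genes of a library is the remaining link between *Ociad2* and the other values.

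*Ociad2* (mouse genome build GRCm38, chromosome 5, 73322199 to 73341028, minus strand) ran from 392 to 843 on the low side, with a median of 659, and from 1750 to 3780 on the high side, with a median of 2541. The values next to the threshold were 799 and 843 below it and 1750 and 1876 above it, so no sample lay near 1200. The low side held 8 samples labelled CER, 8 labelled dCA3 and 16 labelled vCA3, and the high side held 24, 24 and 16. The numbers were the same in each label group of mice, 2, 2 and 4 on the low side and 6, 6 and 4 on the high side. Per the study's methods, the columns of the library plates were balanced over the experimental groups. Whether the sides follow such columns was not tested. The medians hardly moved with the label, being 642, 642 and 672 on the low side and 2337, 2649 and 2745 on the high side in CER, dCA3 and vCA3.

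**Figure D1:**
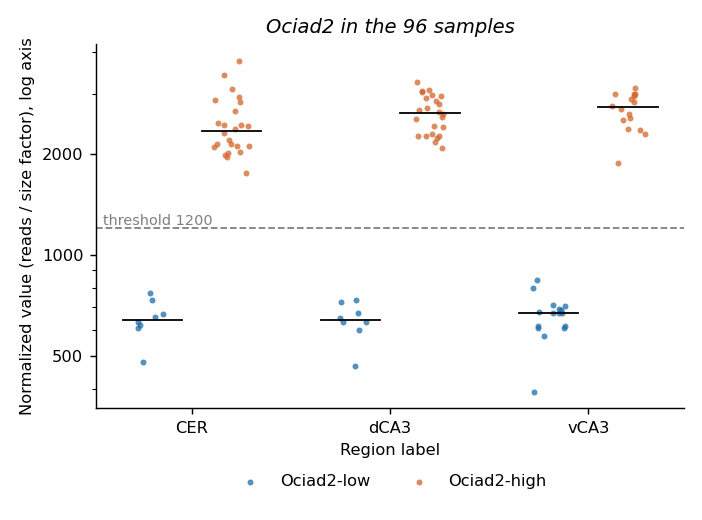
Normalized *Ociad2* values (reads divided by the size factor of the library, log axis) of the 96 samples by region label and side, with the median as a black line and the threshold of 1200 dashed. Each label holds samples of both sides, between 392 and 843 and between 1750 and 3780, and none in between.

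The low side has as many samples as there are mice, but they were not spread as 1 per mouse. Of the 32 mice, 19 had 1 low sample among their 3 samples, 7 had 0, 5 had 2 and 1 had 3. A single low sample was the one labelled vCA3 in 10 mice, dCA3 in 5 and CER in 4. In the other 9 regions, *Ociad2* had medians from 926 in vDG (ventral dentate gyrus) to 2697 in PVN (paraventricular nucleus), and dCA1 had a median of 2682. These labels also held values on both sides of 1200. In dCA1 the values ran from 661 to 3555 with 7 of 32 under 1200, in PVN from 692 to 3681 with 4 of 30 under it, and in vCA1 10 of 32 were under it. The mean profiles of the other labels used below may therefore mix more than 1 kind of sample.

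Depth overlapped between the sides. The libraries held 83529 to 217926 reads on the low side (median 171454) and 109557 to 259606 on the high side (median 182324). The difference of medians, low minus high, was -10869 reads (permutation test, two-sided, p = 0.285), whereas the size factor, the reads per unit of value, was higher on the low side by 0.283 (p = 0.00248). The assay with the most reads took a median of 17.2% of a low library (14.2% to 29.4%) and 27.8% of a high library (19.6% to 50.1%). Its part in the differences below was not tested, apart from rescaling all libraries to the same total, which is named where it turns a direction.

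Among the 68 genes, 48 (70.6%) differed between the sides at an adjusted p of 0.1 in limma with the region label as a covariate, 26 of them higher (38.2%) and 22 lower (32.4%) in the low side. Of these, 12 (17.6%) also differed by more than 1 on the log2(value + 1) scale, that is by more than 2-fold, with 6 in each direction (8.82% each). Genes with the largest positive differences were the cell-cycle inhibitor *Cdkn1a*, the sialyltransferase *St6galnac4*, the transcription factor *Rfx5*, the cyclin D-binding protein *Ccndbp1*, the matrix glycoprotein *Thbs1* and the GR gene *Nr3c1*. Genes lower in the low side were the T cell kinase *Zap70*, the GR co-chaperone *Fkbp5*, the membrane protein *Tmem176a*, the ribosomal protein *Rps2*, the actin-bundling *Fscn1* and the ferritin heavy chain *Fth1*. The same-total scaling moved the median difference of all 68 genes from 0.09 to 0.45. With it, 57 genes passed, 51 higher and 6 lower in the low side (89.5% higher, against 54.2% before), and all 12 genes kept their direction.

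The sequences upstream of 2 of these genes are shown because *St6galnac4* is the gene whose values did not overlap between the sides and *Zap70* the gene with the largest difference. Each is the 250 bases before a transcript start in RefSeq (build GRCm38.p6, plus strand), at chr2:32586828-32587077 and chr1:36761548-36761797, with CpG dinucleotides in capitals.
St6galnac4: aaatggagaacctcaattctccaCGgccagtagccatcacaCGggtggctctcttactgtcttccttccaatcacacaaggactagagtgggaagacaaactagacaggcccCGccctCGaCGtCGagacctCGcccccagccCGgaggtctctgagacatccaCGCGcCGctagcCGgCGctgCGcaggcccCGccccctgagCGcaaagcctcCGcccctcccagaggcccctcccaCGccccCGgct
Zap70: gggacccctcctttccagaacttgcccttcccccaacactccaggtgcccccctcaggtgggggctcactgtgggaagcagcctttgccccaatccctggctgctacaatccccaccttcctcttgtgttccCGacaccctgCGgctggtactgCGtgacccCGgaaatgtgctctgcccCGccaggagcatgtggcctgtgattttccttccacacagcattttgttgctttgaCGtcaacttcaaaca
The *St6galnac4* window has a GC content of 65.2% and 19 CpG and the *Zap70* window 58.8% and 6 CpG, against medians of 52.4% and 6 over 32851 windows of the same length. A GR half-site, AGAACA or on the other strand TGTTCT, was found in 1 of 15 windows of 10 of the 12 genes that have one in the table, against 16.1% of all windows. A match is a description of letters and not of binding.

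*St6galnac4*, which adds sialic acid to O-linked glycans (chromosome 2, 32587095 to 32599698, plus strand), ran from 404 to 799 on the low side (median 578) and from 115 to 322 on the high side (median 198). Every low sample lay above every high sample, which held for 1 of the 68 genes (1.47%). The log2 difference was 1.51 (standard error 0.07, limma adjusted p = 1.49e-36), and it was 1.62 within CER, 1.58 within dCA3 and 1.36 within vCA3. In the other 9 regions the mean log2 level reached at most 7.42, in dDG (dorsal dentate gyrus), below both the low side at 9.21 and the high side at 7.67.

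*Nr3c1*, the gene of the GR itself, ran from 403 to 753 on the low side (median 492) and from 149 to 450 on the high side (median 245). The sides overlapped little, with 25 of 32 low samples above every high sample. The log2 difference was 1.02 (standard error 0.06, limma adjusted p = 7.09e-27). *Fkbp5* encodes a co-chaperone of the GR and is itself a well-known target of the receptor. It went the other way, with 0 to 73.2 on the low side (median 12.2) and 0.773 to 152 on the high side (median 79.4). The sides overlapped, although 32 of 32 low samples lay below the high median. Its log2 difference was -2.73 (standard error 0.27, limma adjusted p = 6.52e-16).

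*Cdkn1a*, which halts the cell cycle downstream of p53 and is also induced by glucocorticoids, ran from 6.63 to 249 on the low side (median 80.2) and from 0 to 85.8 on the high side (median 27.9). The sides overlapped widely, and 14 of 32 low samples lay above every high sample. The log2 difference was 1.58 (standard error 0.29, limma adjusted p = 1.33e-06). *Ccndbp1*, which binds cyclin D1, ran from 490 to 1742 on the low side (median 792) and from 167 to 699 on the high side (median 299). Of the low samples, 21 lay above all high samples. Its log2 difference was 1.37 (standard error 0.11, limma adjusted p = 2.33e-21).

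*Rfx5*, which binds the promoters of MHC class II genes, ran from 34.6 to 115 on the low side (median 74.7) and from 0 to 77.4 on the high side (median 34.5). The difference was 1.44 (standard error 0.21, limma adjusted p = 2.62e-09) and depended on the label to some extent, with 2.02 within vCA3 and 1.61 within dCA3 but 0.49 within CER (adjusted p = 0.31). *Rfx5* was thus the gene among the 12 that did not pass within every label. The test of this variation itself did not pass (limma interaction, adjusted p = 0.165). *Thbs1*, a secreted glycoprotein that astrocytes use to promote synapse formation, ran from 17.8 to 106 on the low side (median 42.6) and from 0 to 61.5 on the high side (median 17.9). The sides overlapped for 30 of 32 low samples, and the log2 difference was 1.37 (standard error 0.19, limma adjusted p = 1.35e-09).

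*Zap70* (chromosome 1, 36761798 to 36782818, plus strand) is the kinase that relays T cell receptor signals. It ran from 0 to 13.6 on the low side (median 1.83, with 8 of 32 samples at 0) and from 0 to 119 on the high side (median 67.4, with 1 of 64 at 0). A single high sample overlapped the low range. The log2 difference was -4.21 (standard error 0.23, limma adjusted p = 3.8e-31), and at these low values its size depends on the pseudocount, with -5.25 at 0.1 and -2.43 at 10. A value of 0 is a limit of counting, and 1 read amounts to 0.424 to 1.14 on the low side.

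*Tmem176a*, an intracellular membrane protein best known from dendritic cells, ran from 29.8 to 118 on the low side (median 63.9) and from 94.2 to 511 on the high side (median 263). All but 2 low samples lay below every high sample. The log2 difference was -2.01 (standard error 0.10, limma adjusted p = 2.26e-34). *Fscn1*, which bundles actin in filopodia, ran from 41.3 to 243 on the low side (median 91.5) and from 98.2 to 579 on the high side (median 278). The sides overlapped, with 18 of 32 low samples below all high samples, and the log2 difference was -1.48 (standard error 0.13, limma adjusted p = 5.52e-19).

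*Fth1*, the iron-storing heavy chain of ferritin, had the highest values, from 9497 to 39202 on the low side (median 15651) and from 16074 to 99820 on the high side (median 34267). The sides overlapped, with 18 of 32 low samples below all high samples. The log2 difference was -1.32 (standard error 0.13, limma adjusted p = 2.16e-16), and -0.91 with all libraries rescaled to the same total. *Rps2*, of the small ribosomal subunit, ran from 0 to 39.1 on the low side (median 16.3) and from 0 to 87.4 on the high side (median 40.9). The ranges overlapped throughout, and the log2 difference was -1.53 (standard error 0.20, limma adjusted p = 1.04e-10). The mean value of this assay over both sides was 33.0, against 15887 for *Rps12* and 5001 for *Rps25*. How well it measures the *Rps2* transcript was not tested. Ferritin and ribosomal protein genes have many near-identical copies in the genome, and reads shared with them cannot be separated here.

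**Figure D2:**
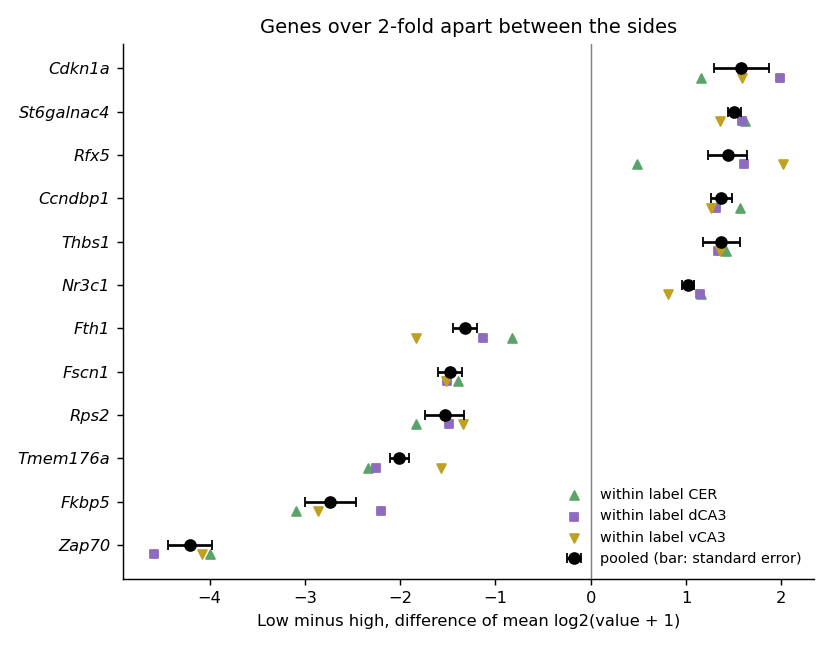
Difference of mean log2(value + 1), low minus high, for the 12 genes over 2-fold apart, with the pooled limma estimate and its standard error (black) and the estimates within each region label (coloured). The within-label estimates all have the sign of the pooled one, from -4.58 (*Zap70*, dCA3) to 2.02 (*Rfx5*, vCA3), which the choice of genes by the pooled fit favours. The 12 pooled directions also hold with libraries rescaled to the same total.

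Within the region labels, where low and high samples carry the same label, 34 genes (50%) passed in CER, 32 (47.1%) in dCA3 and 40 (58.8%) in vCA3. Of the 48 genes of the pooled fit, 45 had the same sign in the 3 labels and 24 passed in each of them. Of the 12 genes over 2-fold apart, 11 passed in each label and 9 were also over 2-fold apart in each. Across the label groups of mice, the difference of *Nr3c1* lay between 0.90 and 1.11, that of *St6galnac4* between 1.39 and 1.75 and that of *Zap70* between -4.54 and -3.94. For each of the 12 genes it had the same sign in the 4 groups. The pooled fit on these same samples chose the genes, so agreement across labels and groups was favoured in advance. It is a description and not a separate test.

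**Figure D3:**
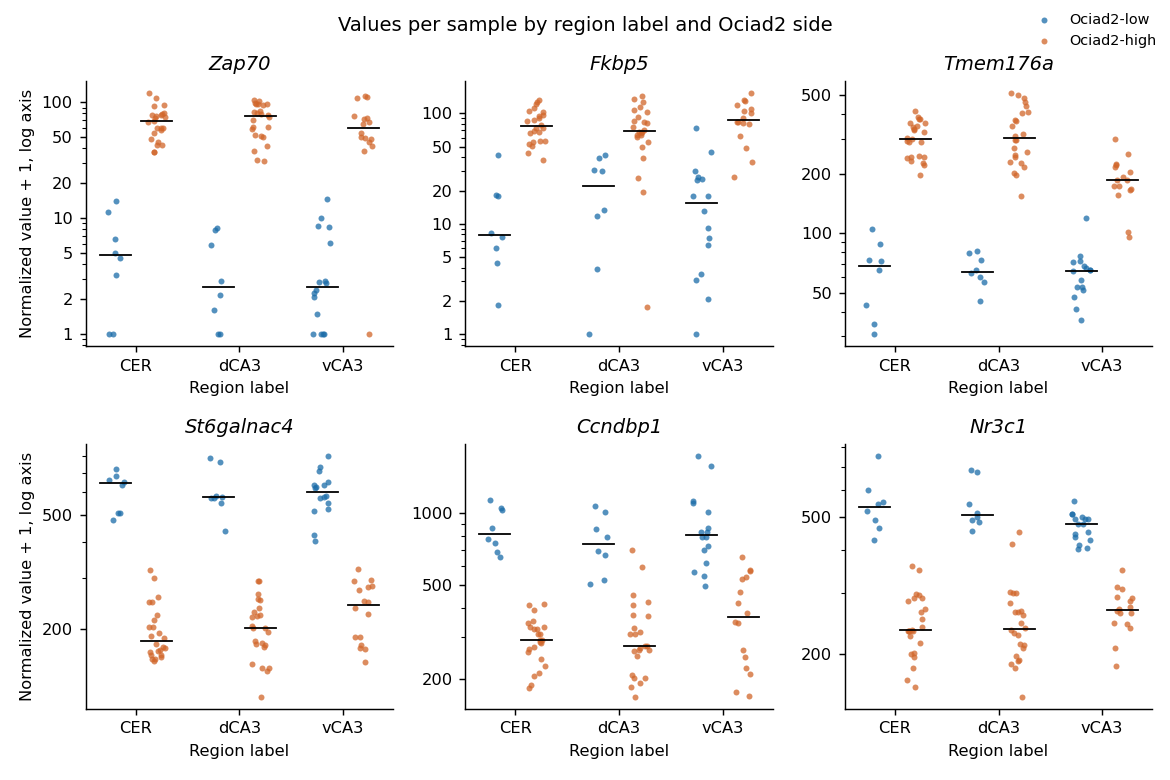
Normalized value + 1 (log axis) of 6 genes in the 96 samples by region label and side, with medians as black lines. *Zap70*, *Fkbp5* and *Tmem176a* are lower and *St6galnac4*, *Ccndbp1* and *Nr3c1* higher on the low side under each of the 3 labels, and the pooled directions also hold with libraries rescaled to the same total. The low and high values of *St6galnac4* do not overlap.

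The remaining genes were described by the lists to which they belong, each beside the median difference of 0.09 over all 68 genes and the shares of all genes that were higher (38.2%) or lower (32.4%) in the low side. The lists are short, with at most 9 genes, and their counts are descriptions that set no list apart from the other genes. Of the 9 genes of RNA processing and transcription, 5 were higher in the low side (*Rfx5*, the splicing regulator *Rbm4* with 0.63, the RNA polymerase II subunit *Polr2i* with 0.63, the cohesin regulator *Pds5a* with 0.55 and the U1 component *Snrnp70* with 0.35). In this list *Hmgxb3* was lower (-0.14, with the opposite sign when libraries were rescaled to the same total), 3 did not pass, and the median was 0.45. Of the 8 genes of steroid receptors and signalling, 4 were higher (*Cdkn1a*, *Ccndbp1*, *Nr3c1* and the JNK scaffold *Spag9* with 0.44), and the kinase *Akt1* was lower (-0.10, with the opposite sign when rescaled to the same total). The median of this list was 0.30. Of the 11 genes outside the lists, 6 were higher, 3 were lower and 2 did not pass, with the largest positive difference for the kinase *Ikbkb* (0.89) and the most negative for *Fscn1*.

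All 3 chaperone genes were lower in the low side (against 32.4% of all genes), *Fkbp5*, *Hsp90aa1* (-0.41), the chaperone that holds the GR ready to bind its ligand, and the chaperonin subunit *Cct7* (-0.26). With libraries rescaled to the same total, *Cct7* had the opposite sign (0.15) and *Hsp90aa1* no longer differed (0.002, limma adjusted p = 0.981). *Hsp90aa1* differed by -0.01 within CER, -0.39 within dCA3 and -0.72 within vCA3, and *Cct7* by -0.08, -0.13 and -0.49. Both passed within vCA3 only. Of the 7 ubiquitin and proteasome genes, 4 were lower, *Ube2g2* (-0.43), *Psmb3* (-0.29), *Nedd4l* (-0.23) and *Commd1* (-0.20). The last 3 had the opposite sign with libraries rescaled to the same total, where *Psmb3* did not pass (0.12, limma adjusted p = 0.137). The ligases *Nedd4* (0.29) and *Peli1* (0.23) were higher. Among the 5 genes of cytosolic translation, *Rps2* and *Rps12* (-0.54) were lower, the kinase *Mknk2* (0.43) was higher and *Rps25* (0.05) and *Abcf1* (0.21) did not pass. Among the 4 mitochondrial genes, *Atp5f1* (0.15) and *Timm23* (0.18) were higher and *Mrpl54* (-0.26) was lower, the last with the opposite sign when rescaled to the same total.

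Of the 7 immune and matrix genes, whose shares lay near the 38.2% and 32.4% of all genes, 2 were higher (*Thbs1* and *Cd47*, the "do not eat me" signal, with 0.59) and 3 were lower (*Zap70*, *Tmem176a* and *Lrrc25* with -0.51), while *Anxa2* (0.03) and *Tnf* (0.12) did not pass. Among genes of iron handling *Fth1* was lower, and *Lcn2* (0.79, standard error 0.48) did not pass. In purine synthesis *Gart* was higher (0.18) and *Impdh2* lower (-0.23, with the opposite sign when rescaled to the same total). In membrane transport *Slc6a15* was higher (0.28), *Slco3a1* was lower (-0.19, again with the opposite sign) and *Slc7a7* (-0.56) did not pass. In lipid and phosphoinositide metabolism *Mtmr3* was higher (0.15), *Pitpnm2* was lower (-0.47) and *Abhd5* (-0.03) did not pass. The other gene of the 2 in glycosylation, *Dpm2*, did not pass, although it did when libraries were rescaled to the same total.

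The 3 genes with the smallest differences among those whose mean value reached 100 were *Higd1a*, *Dpm2* and *Cul2*. *Higd1a*, of the inner mitochondrial membrane, ran from 781 to 1555 on the low side (median 1135) and from 641 to 2009 on the high side (median 1168). The low range lay within the high range, and the medians were close. The differences were -0.01 for *Higd1a*, -0.03 for the mannosyl-donor subunit *Dpm2* and -0.03 for the ubiquitin ligase scaffold *Cul2*. The directions turned when libraries were rescaled to the same total, to 0.39, 0.38 and 0.38. With that scaling all 3 passed (limma adjusted p = 8.91e-05, 1.63e-04 and 1.52e-03), as did 57 of the 68 genes. A gene said not to pass is thus one that did not pass with the size-factor values.

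Within the low side, the region label made no difference that the test found. In limma, 0 of 68 genes (0%) differed among the 8 CER, 8 dCA3 and 16 vCA3 labels (smallest adjusted p = 0.802, for *Rps2*), and 1 gene had an unadjusted p under 0.05. Pairwise, the numbers with an unadjusted p under 0.05 were 0 for dCA3 against CER, 2 for vCA3 against CER and 1 for vCA3 against dCA3, and 0 passed the adjusted threshold in any of them. With 8 samples under 2 of the labels, this does not show that the labels are alike.

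Within the high side, 18 genes (26.5%) differed among the labels, and samples labelled vCA3 stood apart. Between the 24 samples labelled dCA3 and the 24 labelled CER, 0 genes passed in limma (3 had an unadjusted p under 0.05). Between vCA3 and CER 21 genes passed (30.9%), and between vCA3 and dCA3 26 passed (38.2%). *Tmem176a* had mean log2 levels of 8.22 in CER, 8.27 in dCA3 and 7.50 in vCA3 (limma adjusted p = 1.11e-05 over the 3 labels). The iron-storage gene *Fth1* ran the other way, with means of 14.96, 14.97 and 15.73 (limma adjusted p = 4.71e-04). Its values under vCA3 were spread from 26306 to 99820 (median 57188), against medians of 28972 in CER and 30245 in dCA3. In the library with 99820 (mouse 235) the top assay took 50.1% of the reads. Depth and the share of the top assay were not compared between the labels, and their part in these label differences was not tested.

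The other genes with the smallest adjusted p among labels on the high side were *Rps12*, *Rps25* and *Commd1*. The small-subunit protein *Rps12* had means of 14.19, 14.18 and 13.89 in CER, dCA3 and vCA3. In vCA3, *Rps25*, also of the small subunit, differed from CER by -0.36 (standard error 0.08, limma adjusted p = 2.21e-04), and *Commd1*, a regulator of copper transport and NF-kappaB, differed by -0.30 (standard error 0.07, adjusted p = 9.90e-04). Between dCA3 and CER, these 2 genes differed by -0.09 and -0.01. *Rps12*, *Rps25* and *Commd1* were thus lower in vCA3 than under the other 2 labels. The differences of the 5 genes between vCA3 and CER kept their direction with libraries rescaled to the same total.

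**Figure D4:**
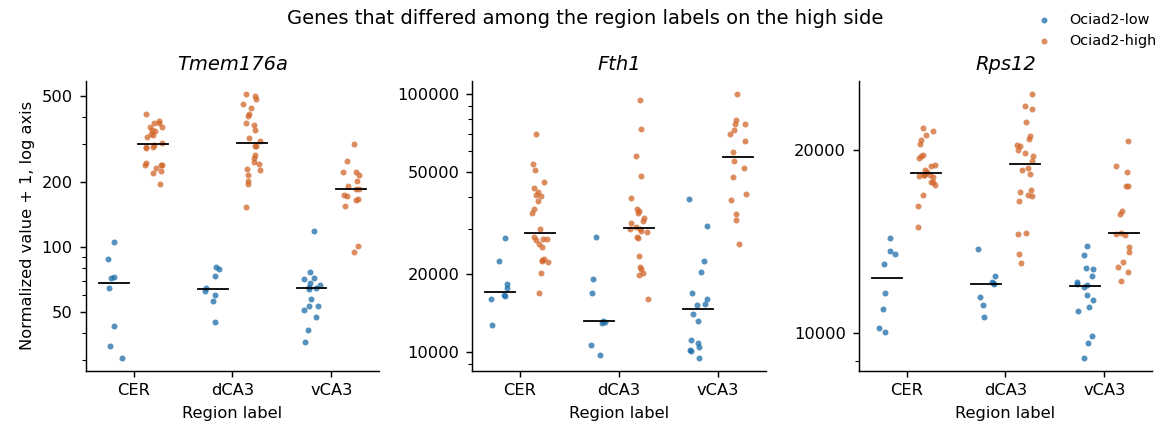
Normalized value + 1 (log axis) of *Tmem176a*, *Fth1* and *Rps12* by region label and side, with medians as black lines. On the high side vCA3 differs from CER and dCA3, by -0.71 and -0.76 for *Tmem176a*, 0.77 and 0.76 for *Fth1* and -0.29 and -0.28 for *Rps12* (the differences from CER keep their direction with libraries rescaled to the same total), and on the low side 0 of 68 genes differed among the labels.

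The difference between the sides itself varied with the label for 2 genes (2.94%), *Tmem176a* and *Fth1* (limma interaction, adjusted p = 0.068 for each). For *Tmem176a* it was -2.33 within CER, -2.26 within dCA3 and -1.58 within vCA3, and for *Fth1* it was -0.82, -1.13 and -1.84. Adding the mouse to the fit as a replicate block left 0 genes past the threshold, with adjusted p of 0.376 and 0.234 for these 2 genes. With libraries rescaled to the same total 15 genes passed, and these 2 had adjusted p of 0.0103 and 0.0311, so the interaction depended on the fit.

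When each sample was paired with the most similar of the other 95 by Pearson's r over the 68 genes, 32 of 32 low samples and 64 of 64 high samples were nearest to a sample of their own side. The nearest sample had the same region label in 4 of 32 and 32 of 64 cases, where the sizes of the labels within a side alone would give 11.4 and 21.3. It came from the same mouse in 1 and 0 cases. Over pairs of samples, r had a median of 0.970 within the low side (496 pairs), 0.959 within the high side (2016 pairs) and 0.925 between the sides (2048 pairs). These values are across genes, which are not independent replicates, and all libraries share the same assays. Among the 50 genes whose mean value reached 100, the SD over samples had a median of 0.32 on the low side and 0.39 on the high side on the log2 scale.

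Which tissue the sides resemble could not be read from defining markers, since 0 of 31 marker genes in 9 lists (cerebellum, CA pyramidal neurons, dentate granule cells, choroid plexus, oligodendrocytes, astrocytes, microglia, endothelium and pituitary) are among the assays. The labels CER, dCA3 and vCA3 could therefore not be checked against markers, and neither side is given a tissue name here. What remains is likeness to the libraries of the other 9 regions. Across 68 genes, r of the mean log2 levels lay between 0.943 (Pit) and 0.966 (dCA1) for the low side and between 0.963 (Pit) and 0.987 (dCA1) for the high side. The sides had an r of 0.959 with each other.

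By number of genes, the low side stood 12 to 19 genes more than 2-fold from each of the other regions, with the fewest for vDG and the most for AMY (amygdala). This order depended on the scaling, since with libraries rescaled to the same total the numbers ran from 11 (dDG and vDG) to 28 (dCA1, against 16 before), with 24 for PVN (against 13) and 21 for AMY. For the high side they ran from 4 to 17 under that scaling. A pseudocount of 10 also changed the order, with 8 (dCA1) to 15 (AMY) genes for the low side and 1 to 11 (Pit) for the high side. With the size-factor values and a pseudocount of 1, the high side stood 3 to 17 genes from the other regions. The fewest were for PVN (3), vCA1 (4), dCA1 (5), BNST (5, bed nucleus of the stria terminalis) and PFC (5, prefrontal cortex) and the most for Pit. Of the 12 genes over 2-fold apart between the sides, the mean of the low side lay outside the range of the other 9 regions for 9 and that of the high side for 3. These 12 genes were chosen for their large difference between the sides, which favours a mean outside that range. The same counts over all tested genes were not made, so these numbers have no background and are descriptions. The low side was above all 9 regions in *Cdkn1a*, *St6galnac4*, *Ccndbp1* and *Nr3c1* and below all 9 in *Zap70*, *Fkbp5*, *Tmem176a*, *Fscn1* and *Fth1*. The high side was above all 9 in *St6galnac4* and *Zap70* and below all 9 in *Ccndbp1*. Several of these margins were smaller than 1 SD over the samples of the side. On the low side this held for *Nr3c1* (8.97, SD 0.21, against 8.95 in Pit), *Cdkn1a* (6.24, SD 1.09, against 6.09 in PFC), *Zap70* (1.65, SD 1.30, against 2.55 in BNST) and *Fkbp5* (3.47, SD 1.65, against 4.66 in PFC). On the high side it held for *Ccndbp1* (8.25, SD 0.50, against 8.29 in dDG) and *St6galnac4* (7.67, SD 0.34, against 7.42 in dDG). The sides were not tested against any other region. The difference in likeness between the sides was not tested.

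**Figure D5:**
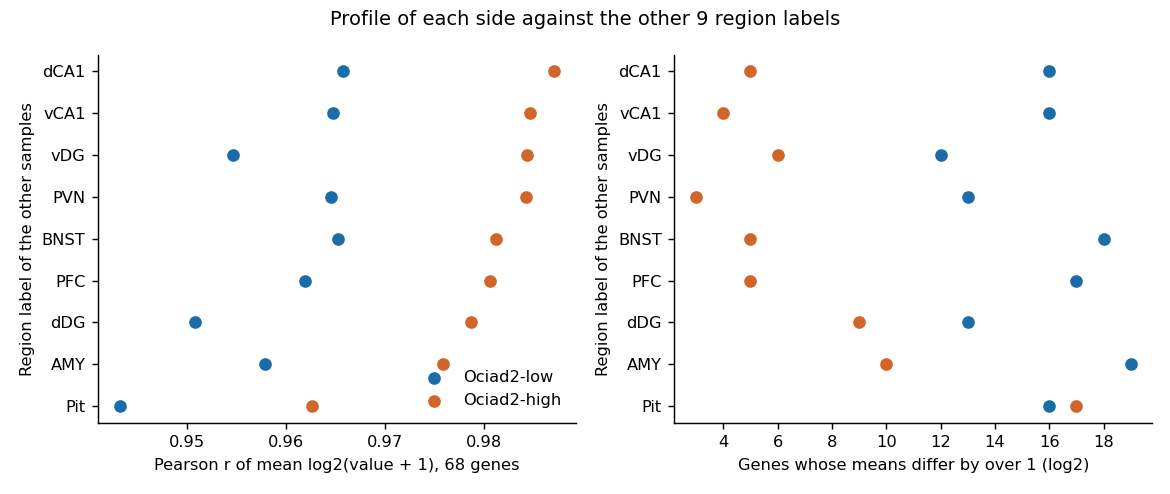
Profile of each side against the mean profiles of the other 9 region labels, as Pearson's r over 68 genes (left) and as the number of genes whose mean log2(value + 1) differs by over 1 (right). The r of the high side (0.963 to 0.987) exceeds that of the low side (0.943 to 0.966) for each of the 9 labels, and fewer genes differ from the high side for 8 of them, Pit being the exception (17 against 16).

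When each gene was centred on its mean over the profiles, which removes the level that all regions share, the low side had an r of at most -0.01 with any of the other 9 labels. The high side was then most like the dentate gyrus labels, with 0.208 for dDG and 0.214 for vDG. Samples labelled Pit, dDG or vDG hold 2 kinds of libraries by *Anxa2*. These were then divided at an *Anxa2* value of 1000 in place of their labels. The centred r with the 64 samples under 1000 was 0.507 for the high side and -0.090 for the low side. With the 31 samples over 1000 it was -0.158 for the high side and 0.026 for the low side. Centring makes the profiles depend on one another, and these values are descriptions.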

How the data were processed

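RNA from frozen micropunches was measured by TruSeq Targeted RNA sequencing on a MiSeq. Per the study's methods, PRINSEQ lite 0.20.4 removed reads of low quality, and BWA 0.7.12 placed the others on the manifest of the assays. Libraries were prepared on 4 plates, each with several regions placed at random in its columns. Each column held equal numbers of samples from every experimental group. Which regions shared a plate and which samples shared a column is not given. The deposited values are a signal, namely reads per assay that the authors divided by 1 DESeq2 size factor per sample. The submitters' processing notes name mm10. In each sample, 100% of the 26220 values were whole multiples of a step (tolerance 0.01 reads), which gave the reads per library (83529 to 259606 in the 96 samples used). No count model was fitted. Reads of amplified libraries are not independent molecules.

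Samples were grouped by their region label and by *Ociad2* (under or over 1200). The region labels, threshold, genes to name and gene lists were chosen with earlier results of these data known. Each mouse gave up to 3 samples, and p-values measure the spread between samples, without a term for the plate or its columns.

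Values were transformed to log2(value + 1), on which differences of low genes are understated. limma 3.58.1 (R 4.3.3) was fitted to 68 genes and 96 samples with side and region label. A second fit with the 6 combinations of side and label gave the contrasts within labels, the interaction and the labels within a side. P-values were adjusted over the 68 genes after Benjamini and Hochberg, with a threshold of 0.1 as in the study's methods. Genes were named if they passed and differed by over 1 on the log2 scale (up to 12 per direction), if the sides did not overlap, if they had the 3 smallest differences at a mean of at least 100, or if they had the 5 smallest adjusted p over the labels within a side. For the low side, where 0 genes passed, only the first of the latter is named. Members of the lists were named beyond this rule so that the counts can be followed, and some results are not reported here. Reads were compared by a permutation test of medians (100000 resamples). On simulated data for the comparison of the sides, 93.7% of 15 genes changed 2-fold among 68 were recovered in 20 rounds, and 8.77% of calls were false. The simulated samples were independent, without effects of mouse or plate and without a shift in the share of the top assay. These rates need not hold for the real data.

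Samples of the same mouse were checked for pairing. Across genes, their deviations had a median r of -0.0256 (96 pairs), against 0.0012 for different mice of a label group (672 pairs). Alternatives were pseudocounts of 0.1 and 10, a mean of at least 10, rescaling to the same total, the label group or the mouse as a term, no region term, left-out labels or groups, an adjusted p of 0.05 and a log2 difference of 0.5. Gene positions are from the GENCODE annotation of GRCm38. Other steps ran in Python 3.11.15 (scipy 1.17.1, numpy 2.4.6, pandas 2.3.3), with plots by matplotlib 3.10.9.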

Additional observations from a re-analysis of the deposited data

Results flagged for a closer look

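Within the low side, the values of the 12 genes and the reads were searched for samples far from the other 7 of their label group, on the log2 scale for genes, by Dixon's criterion at the 95% level. Of 52 groups of values 9 held such a sample, where chance gives about 1 in 20.

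Low values stood apart in *St6galnac4* (404 in Co naive, mouse 251 labelled vCA3, against 576 to 729), *Rfx5* (34.6 in MS naive, mouse 101 labelled CER, against 61.9 to 100.2) and *Fkbp5* (0 in Co naive, mouse 253 labelled vCA3, against 5.06 to 29.4). *Rps2* had 3 of them, 2.38 in Co inject (mouse 233 labelled dCA3, against values up to 26.8), 0 in MS inject (mouse 93 labelled dCA3, against 7.63 to 25.9) and 0.829 in MS naive (mouse 103 labelled CER, against 10.5 to 39.1). High values stood apart in *Thbs1* (106 in MS naive, mouse 103 labelled CER, against 24.2 to 47.8), *Fscn1* (133 in MS inject, mouse 85 labelled CER, against 57.8 to 85.3) and *Fth1* (39202 in Co naive, mouse 251 labelled vCA3, against 10044 to 19114). The vCA3 library of mouse 251 thus had the lowest *St6galnac4* and the highest *Fth1* and *Fscn1* (243) values of the low side, all toward the high side, but also the highest *Ccndbp1* value of the low side (1742, against 167 to 699 on the high side) and *Zap70* at 0, both away from it.

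The difference between the sides varied with the region label for *Tmem176a* and *Fth1* by the interaction term of limma (adjusted p = 0.068 for each), but not with the mouse as a replicate block (adjusted p = 0.376 and 0.234) or at a threshold of 0.05. With libraries rescaled to the same total the adjusted p was 0.0103 and 0.0311.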

How the results depend on the processing

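Over 11 main results and 20 values of single genes, 350 alternative values were computed, of which 340 kept their direction, their side of the threshold or their count within 1.5 times. The number of genes that differed between the sides lay between 38 (without the samples labelled vCA3) and 57 (same total). The number over 2-fold apart became 20 with a log2 difference of 0.5, which follows from the lower limit. The interaction passed for 2 genes (13 at an unadjusted p under 0.05), and for 15 with the same total, 0 with the mouse as a replicate block and 0 at an adjusted p of 0.05; the cause was not tested. The pairing by mouse gave 44 genes between the sides and 0 and 16 genes among the labels of the low and the high side, and changed the call of no other count by over 1.5 times. With the same total, *Higd1a* (0.39), *Dpm2* (0.38) and *Cul2* (0.38) reversed, and 11 called genes changed sign, 9 of them past the threshold in the other direction; of 17 genes over 2-fold apart, 11 were shared. The size factor in place of the reads gave 0.283 in the other direction. Centred profiles, chosen after seeing the data, gave an r with dCA1 of -0.204 (low) and -0.0427 (high), by their construction. Samples labelled CER and dCA3 on the low side number 8 each, and low values (*Zap70*, *Rps2*, *Fkbp5*) rest on few reads.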
